A study of Homo sapiens with 6 samples.

Results

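The genes described here are those by which a tumour cell shows peptides to T cells and those by which it can hold immune cells in check: the class I heavy chains HLA-B, HLA-C and HLA-E, their light chain B2M, the peptide transporter subunits TAP1 and TAP2, the checkpoint ligands CD274 (PD-L1) and PDCD1LG2 (PD-L2), and the ectonucleotidase NT5E (CD73). They are 9 of the 19775 genes the array names, and were measured by 26 of its 54613 probe sets other than controls, taken as every such probe set whose only symbol in the platform annotation was one of the 9. The cells were MDA-MB-231, a human triple-negative breast cancer line. The groups were 3 arrays of cells exposed to TCI04 at 50 µM for 48 h, an agent whose structure the labels do not give, and 3 arrays of cells given phosphate-buffered saline (PBS) for as long. Both groups were grown in the same medium with fetal serum, and the labels name no other agent. The values were MAS5 signals, a per-array summary of the probes of a probe set on a linear scale. The labels do not say that replicate arrays stand for separately grown cells, so p-values here rest on a spread among arrays that could be technical alone.

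Class I molecules form when a heavy chain and B2M take up a peptide that the TAP1-TAP2 transporter has moved into the endoplasmic reticulum, and cytotoxic T cells read the complex at the cell surface. Loss of B2M or of TAP lowers surface class I, while HLA-E presents leader peptides of other class I chains to receptors on natural killer cells. PD-L1 and PD-L2 bind PD-1 on T cells and dampen them, and CD73 turns extracellular AMP into adenosine, which also restrains T cells. Interferon-gamma raises transcription of most of these genes, in part through IRF1, which acts on interferon-stimulated response elements (ISRE) in their promoters, and class I promoters also hold an NF-kB site and boxes bound by RFX, CREB and NF-Y. MDA-MB-231 is commonly used as a line with readily measured PD-L1 and CD73.

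The promoter stretches below are shown because some of these genes share elements of this kind. The arrays measured RNA of the genes with TCI04 and PBS, and the use of these elements was not measured. RefSeq (GRCh38.p14) gave a promoter for 7 of the 9 genes, and for TAP1, which had several entries, the one farthest upstream was used. PDCD1LG2 and HLA-E had no entry. Each stretch covers 180 bases, ending 36 bases before the annotated start, 5′ to 3′ in the direction of the gene. They are reference sequences and not the alleles of the cell line. Capitals mark matches on either strand to an ISRE-like motif (TTTCNNTT), an NF-kB-like motif (GGGGATTC) or a CRE-like motif (TGACG).

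HLA-B, chr6:31357215-31357394, minus strand: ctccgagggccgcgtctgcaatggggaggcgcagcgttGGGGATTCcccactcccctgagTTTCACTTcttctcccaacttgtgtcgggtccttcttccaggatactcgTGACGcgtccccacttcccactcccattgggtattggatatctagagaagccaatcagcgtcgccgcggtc
HLA-C, chr6:31272128-31272307, minus strand: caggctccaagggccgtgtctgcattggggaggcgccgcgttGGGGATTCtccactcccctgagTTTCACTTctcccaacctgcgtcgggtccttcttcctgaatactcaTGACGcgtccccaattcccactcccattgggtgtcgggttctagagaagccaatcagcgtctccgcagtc
B2M, chr15:44711302-44711481, plus strand: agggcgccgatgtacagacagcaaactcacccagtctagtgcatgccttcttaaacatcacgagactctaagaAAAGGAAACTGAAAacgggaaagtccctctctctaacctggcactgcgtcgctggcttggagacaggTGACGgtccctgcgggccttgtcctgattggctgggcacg
TAP1, chr6:32853740-32853919, minus strand: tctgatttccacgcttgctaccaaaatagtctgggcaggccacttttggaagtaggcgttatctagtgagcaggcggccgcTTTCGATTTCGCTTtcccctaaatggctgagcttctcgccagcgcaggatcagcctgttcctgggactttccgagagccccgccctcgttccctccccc
CD274, chr9:5450327-5450506, plus strand: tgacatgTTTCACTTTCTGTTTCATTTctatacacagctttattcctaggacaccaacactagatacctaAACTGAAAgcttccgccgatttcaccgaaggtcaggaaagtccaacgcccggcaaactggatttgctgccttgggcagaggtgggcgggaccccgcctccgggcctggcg
NT5E, chr6:85449868-85450047, plus strand: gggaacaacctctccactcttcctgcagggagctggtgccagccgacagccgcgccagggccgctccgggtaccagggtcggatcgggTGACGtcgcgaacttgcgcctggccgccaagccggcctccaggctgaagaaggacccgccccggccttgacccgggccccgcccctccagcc

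The ISRE-like letters were present in 6 of the 7 promoters, TAP2 included, and are found in 15% of the 35116 promoter entries over the same stretch. The matches overlapped one another in CD274, B2M, TAP1 and TAP2. HLA-B and HLA-C each held the NF-kB-like letters, which occur in 0.555% of entries, upstream of the ISRE-like match, and a CRE-like match (15.9% of entries) downstream of it. The NF-kB-like motif was a single exact string, and class I promoters are known to hold such a site. Its low share is thus no measure of NF-kB sites at large. B2M shared the CRE-like match, and CCAAT boxes (CCAAT, 26.4% of entries) lay in HLA-B, HLA-C and B2M. NT5E had only the CRE-like match. The motifs and the stretch were picked for these genes, and elements of this kind were already known in some of them. The shares of entries therefore tell how common the letters are and are no test of enrichment. A match describes letters and is not evidence of binding, and these letters being missing from a stretch says nothing about a factor.

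None of the 9 genes was shown to change with TCI04. Both probe sets of PDCD1LG2 lay below the filter on low values (a mean signal of about 33.9) and were not tested, while the other 24 probe sets, for 8 genes, were tested with limma among 32746 probe sets. Of the 24, 0 passed the adjusted threshold of 0.05, where 0.00305% of all tested probe sets did, and 0 had an unadjusted p under 0.05, where 2.21% of all did with higher and 4.88% with lower means. The adjusted p-values ran from 0.697 to 0.972 (limma, Benjamini-Hochberg). With TCI04, 14 of the 24 had a higher and 10 a lower mean. Their median log2 shift (TCI04 minus PBS) was 0.03, against -0.03 over all tested probe sets, of which 43.8% had a higher mean. The direction over all probe sets depended on scaling. Quantile normalization moved their median up by 0.04 and median centring by 0.06, more than its distance from 0. Unadjusted p-values under 0.05 then numbered 1003 higher and 1042 lower, and 1426 higher and 996 lower, against 723 and 1597 as deposited. All shifts are on the log2(signal + 10.96) scale, which understates changes of dim probe sets. For 18 of the 24 the whole 95% interval lay within 1.5-fold in either direction, as it did for 54.9% of all tested probe sets, so that for most of these probe sets a change of that size lies outside the interval. In RNA from whole cultures, a change in a share of the cells and a change of the level in every cell cannot be told apart.

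**Figure D1:**
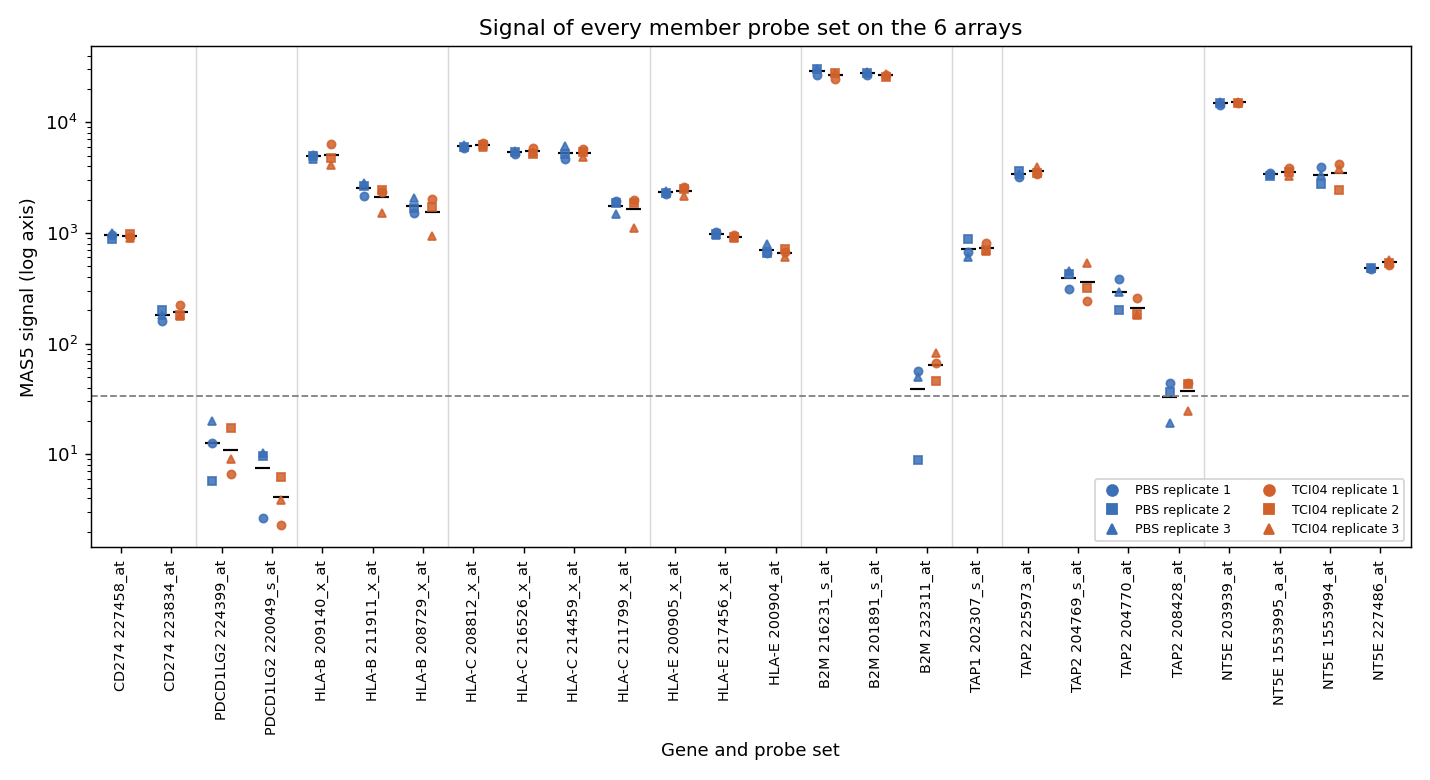
MAS5 signal (log axis) of each of the 26 probe sets on each array, with PBS in blue, TCI04 in orange, a marker shape per replicate number and a black line at each group mean; the dashed line is the filter at about 33.9. The 2 probe sets of PDCD1LG2 lie under the line on all arrays, and only NT5E 227486_at has all 3 TCI04 arrays above all 3 PBS arrays.

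The defining markers of the line were present, with signals of 26217 to 31882 for vimentin (VIM) and 17608 to 19842 for the receptor kinase AXL. The estrogen receptor ESR1 was dim at 16.8 to 67.7, though its mean passed the filter. E-cadherin CDH1 gave 2.17 to 9.64 and did not pass. Other luminal markers were present, among them the keratins KRT18 at 14639 to 17381, KRT8 at 996 to 2741 and KRT19 at 873 to 1793, the factor GATA3 at 683 to 995 and EPCAM at 340 to 454. Summed over the line's 8 mesenchymal markers the signal was 109096 to 117316 with PBS and 111564 to 114623 with TCI04, and over 10 luminal markers, of which 8 passed the filter, 20121 to 23787 and 19104 to 21766. Leukocyte markers, which bear on class I and PD-L1 because immune cells express both, summed over 12 genes to a signal between 396 and 560 with PBS and between 318 and 503 with TCI04, and 4 of the 12 passed the filter. PTPRC, the pan-leukocyte marker, did not pass, at 2.86 to 34.6. The sums for fibroblast markers (635 to 724 with PBS, 534 to 767 with TCI04, 2 of 8 genes above the filter) and endothelial markers (287 to 311 and 225 to 289, 2 of 7) were low as well. One array stood apart by the 3′ to 5′ ratios of its control probe sets. On TCI04 replicate 3 the ACTB control had a 3′ to 5′ ratio of 3.33, against 1.64 to 1.72 on the other arrays. For GAPDH it was 1.21 on that array and 0.973 to 1.08 on the others.

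CD274, which encodes PD-L1, was measured by a pair of probe sets, both above the filter on low values. The brighter (227458_at) gave 957, 884 and 1003 on the PBS arrays and 916, 982 and 891 on the TCI04 arrays. The groups overlapped throughout, and the lowest and the highest array were both PBS arrays. The means were 948 ± 60.1 with PBS and 930 ± 46.9 with TCI04 (SD, n = 3 each), a log2 shift of -0.03 (SE 0.09, 95% interval -0.22 to 0.16, limma, adjusted p = 0.948). With each array centred on its median the value was 0.0325, so no direction can be given. The dimmer probe set (223834_at) gave 160, 200 and 182 with PBS and 223, 180 and 178 with TCI04, a log2 shift of 0.09 (-0.28 to 0.46, limma, adjusted p = 0.909). On the deposited scaling the interval of the brighter probe set reached a fall of 1.17-fold and a rise of 1.12-fold.

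PDCD1LG2, the second PD-1 ligand, gave signals of 5.69 to 19.8 on the PBS arrays and 6.59 to 17.1 on the TCI04 arrays from 224399_at, and 2.64 to 10.3 and 2.31 to 6.29 from 220049_s_at. All of these values lie below the filter, so neither a level nor a difference can be read from them. 

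B2M, the light chain shared by all class I molecules, had 26721, 30440 and 30175 with PBS and 24780, 27731 and 27672 with TCI04 from 216231_s_at. PBS replicate 1 lay among the TCI04 arrays, and the other PBS arrays lay above them. The log2 shift was -0.12 (SE 0.07, 95% interval -0.27 to 0.03, limma, adjusted p = 0.705), and it was -0.0274 after quantile normalization and -0.0624 with median centring. The second bright probe set (201891_s_at) gave 27750 ± 900 with PBS and 26602 ± 710 with TCI04, a log2 shift of -0.06, which turned to 0.0346 after quantile normalization. Without PBS replicate 1 all TCI04 arrays lay below the remaining PBS arrays in both probe sets, at -0.18 and -0.09. Neither passed (limma, adjusted p = 0.723 and 0.728). Fewer arrays must separate there, and the share of all tested probe sets that did was not counted. The third probe set (232311_at) was dim, at 56.6, 8.79 and 50.2 with PBS and 66.3, 45.8 and 81.6 with TCI04. Its log2 shift of 0.77 rested on the low PBS replicate 2 and had the widest interval of the 24, from -0.27 to 1.81.

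The heavy chains were measured by 10 probe sets, all tested, of which 9 have names ending in _x_at, the suffix given to probe sets whose probes can also bind related transcripts. Class I genes are close copies of one another, so a signal named HLA-B, HLA-C or HLA-E may include RNA of another class I gene, and the 10 are not independent. Of the 10, 5 had a higher and 5 a lower mean with TCI04. In none did the groups separate. All TCI04 arrays were above all PBS arrays in 5.35% and below them in 8.19% of all tested probe sets, so none in 10 is near the background.

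HLA-B, a highly polymorphic heavy chain, gave 5101, 4935 and 4694 with PBS and 6424, 4746 and 4123 with TCI04 from its brightest probe set (209140_x_at). The highest and the lowest array were both TCI04 arrays. The log2 shift was 0.03 with an interval from -0.26 to 0.32 (limma, adjusted p = 0.965). From 211911_x_at the signals were 2173, 2643 and 2820 with PBS and 2328, 2456 and 1503 with TCI04, a log2 shift of -0.30 (-0.67 to 0.06, limma, adjusted p = 0.705). From 208729_x_at they were 1503, 1677 and 2068 with PBS and 2022, 1698 and 929 with TCI04, a log2 shift of -0.23 (-0.75 to 0.28, limma, adjusted p = 0.817). In both, TCI04 replicate 3 was far below the other 5 arrays, and the other TCI04 arrays lay within the range of the PBS arrays. Without that array the log2 shifts of the 3 probe sets were 0.17, -0.08 and 0.10, so the sign of the third turned.

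HLA-C, which serves T cells and killer-cell receptors alike, varied least in 208812_x_at, with 6043 ± 203 with PBS and 6202 ± 218 with TCI04 (SD, n = 3 each). The log2 shift was 0.04 (limma, adjusted p = 0.887). On the deposited scaling the interval of this probe set ran from -0.09 to 0.16, a rise of up to 1.12-fold. With median centring the shift was 0.0975. Its other bright probe sets gave 0.03 (216526_x_at) and 0.02 (214459_x_at). In 211799_x_at the signals were 1931, 1878 and 1491 with PBS and 1997, 1848 and 1102 with TCI04. Its log2 shift of -0.14 (-0.56 to 0.29, limma, adjusted p = 0.875) became 0.13 without TCI04 replicate 3 and 0.0159 with array weights. HLA-E, the ligand of NKG2A receptors, gave 2319 ± 69.7 with PBS and 2413 ± 217 with TCI04 from its brightest probe set (200905_x_at), a log2 shift of 0.05 (-0.12 to 0.23, limma, adjusted p = 0.878). Its only probe set without the _x_ suffix (200904_at) gave 701 ± 77.2 and 665 ± 52.4, a log2 shift of -0.07, and 217456_x_at gave -0.09. The HLA-E probe sets thus differed in sign and each interval covered 0.

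What the heavy chain probe sets shared was the place of a single array. TCI04 replicate 3, the array with the high 3′ to 5′ ratios, was the lowest of all 6 arrays in 7 of the 10 heavy chain probe sets, against 23.0% of all tested probe sets. It was below both other TCI04 arrays in 9 of the 10, against 35.3% of all. Its log2 signal was lower than the mean of the other TCI04 arrays by a median of -0.20 in the 10, against 0.02 over all tested probe sets, and by -0.99 and -0.67 in the HLA-B probe sets 208729_x_at and 211911_x_at and -0.80 in the HLA-C probe set 211799_x_at. The other 4 probe sets of HLA-B and HLA-C lay at -0.42, -0.19, -0.07 and -0.04. Without the array, 7 of the 10 had a higher and 3 a lower mean with TCI04, and none of the 10 passed. Bright B2M probe sets did not share this place, since the array was 0.08 and 0.06 above the mean of the other TCI04 arrays there. RNA quality was not measured apart from these ratios, and its part in these heavy chain values was not tested.

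**Figure D2:**
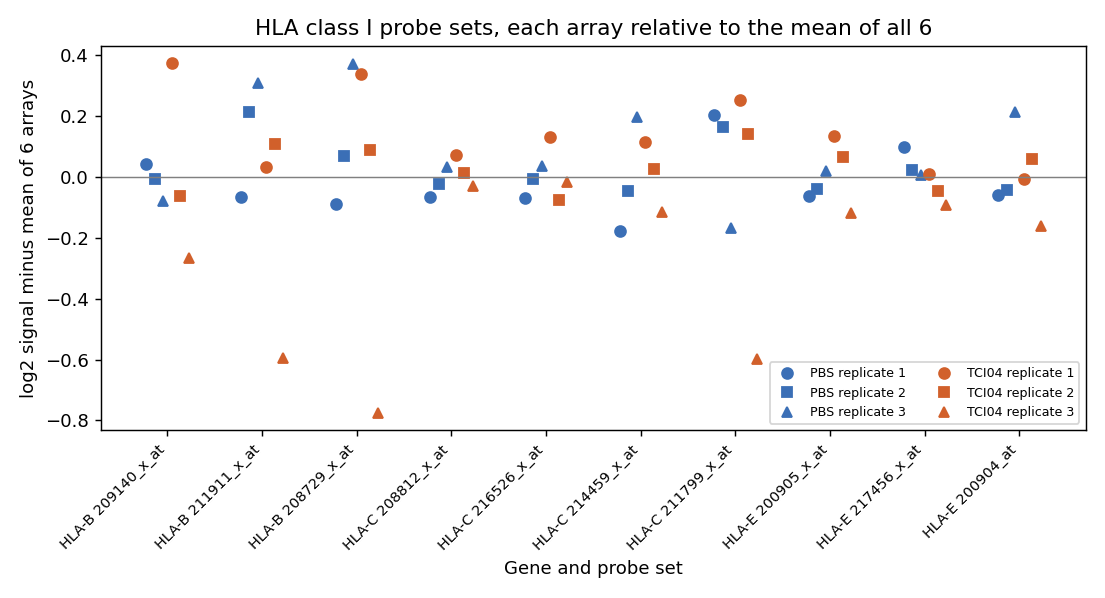
Log2 signal of the 10 HLA-B, HLA-C and HLA-E probe sets on each array, relative to the mean of all 6 arrays (log2 units), with PBS in blue, TCI04 in orange and a marker shape per replicate number. TCI04 replicate 3 (orange triangles) is the lowest array in 7 of the 10, and farthest from the rest in HLA-B 208729_x_at and 211911_x_at and HLA-C 211799_x_at.

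TAP1, which forms the peptide transporter with TAP2, had a single probe set (202307_s_at) with 670, 884 and 604 on the PBS arrays and 811, 703 and 691 on the TCI04 arrays. The TCI04 arrays lay within the range of the PBS arrays. The log2 shift was 0.05 (SE 0.14, 95% interval -0.26 to 0.35, limma, adjusted p = 0.945). TAP2 was measured by 4 probe sets whose shifts differed in sign. The brightest (225973_at) gave 3414 ± 230 with PBS and 3591 ± 273 with TCI04, a log2 shift of 0.07 (-0.10 to 0.24, limma, adjusted p = 0.828). From 204770_at the signals were 383, 202 and 295 with PBS and 258, 184 and 181 with TCI04, a log2 shift of -0.45 (-0.95 to 0.05). This was the smallest unadjusted p of the 24, at 0.0736 (limma, adjusted p = 0.697), and PBS replicate 2 lay among the TCI04 arrays. Without PBS replicate 2 the groups separated and the value was -0.69 (limma, unadjusted p = 0.00791, adjusted p = 0.809). TAP1 then separated too, upward at 0.20 with the same adjusted p. Fewer arrays must separate there. The shares of all tested probe sets that separated or had so small a p without that array were not counted. In 204769_s_at TCI04 replicate 3 was the highest of the 6 arrays at 531, and without it the log2 shift was -0.48. Over all arrays these TAP2 probe sets gave -0.17 (204769_s_at) and 0.15 (208428_at, with signals of 19.4 to 44.5), each with an interval reaching past 1.5-fold in 1 direction or both.

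NT5E, which encodes CD73, held the only probe set of the 24 whose groups did not overlap. In 227486_at the PBS arrays gave 476, 478 and 483 and the TCI04 arrays 518, 538 and 568. All TCI04 arrays were above all PBS arrays, which was so for 5.35% of all tested probe sets, and 0 of the 24 had them all below, against 8.19%. A count of 1 in 24 is thus near the background. The means were 479 ± 3.54 and 541 ± 25.2 (SD, n = 3 each), 1.13-fold higher with TCI04, with a log2 shift of 0.17, a standard error of 0.10 and an interval from -0.04 to 0.39. The difference did not pass before or after correction (limma, unadjusted p = 0.106, adjusted p = 0.705). The brightest NT5E probe set (203939_at) gave 14199, 15020 and 15310 with PBS and 15015, 14980 and 15360 with TCI04, a log2 shift of 0.03 (-0.09 to 0.14, limma, adjusted p = 0.911). On the deposited scaling that interval reached a rise of 1.10-fold, and with median centring the shift was 0.0874. The other probe sets gave 0.07 (1553995_a_at, -0.09 to 0.23) and 0.03 (1553994_at, -0.37 to 0.44), so all 4 had a higher mean and none passed.

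**Figure D3:**
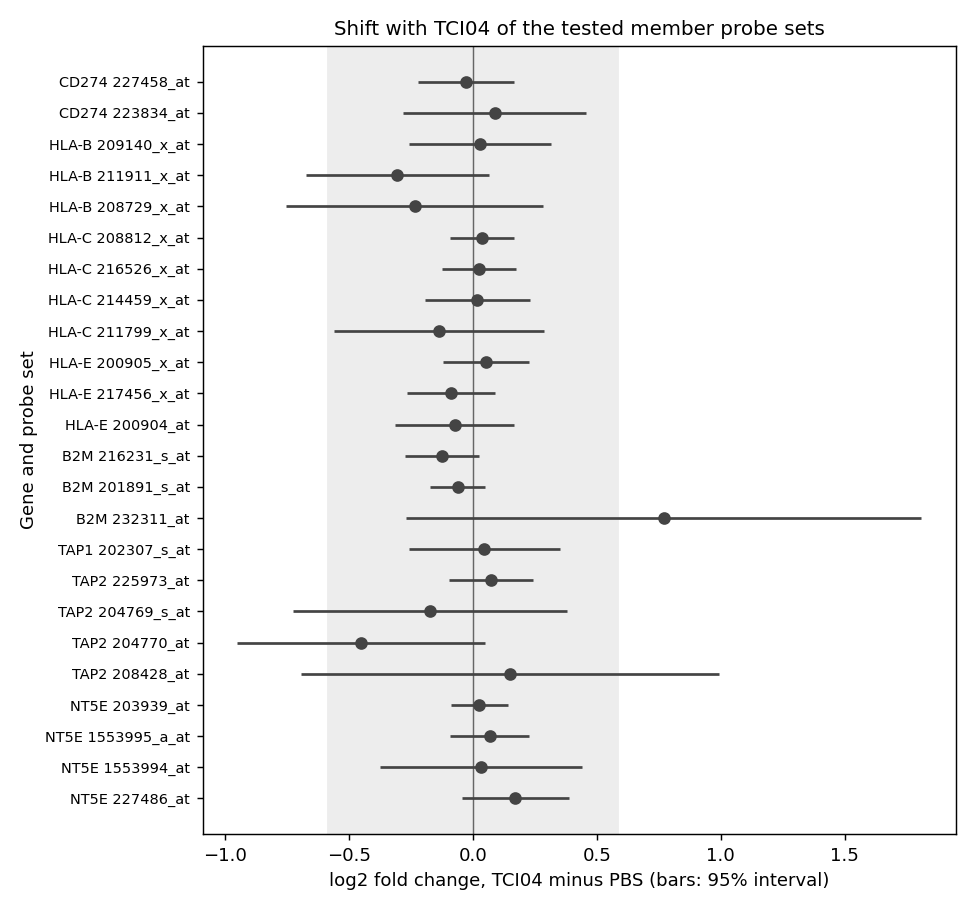
Log2 shift (TCI04 minus PBS) of the 24 tested probe sets, with bars for the 95% interval of the limma fit and a grey band for changes within 1.5-fold. For 18 of the 24 the bar stays inside the band, and the interval of every probe set covers 0.

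Other genes of these pathways were read from lists, each gene by its tested probe set with the highest mean. Over all 13679 genes the median log2 shift was -0.003, 49.3% of genes had a higher mean, and the median was 0.0159 after quantile normalization, 0.0577 with median centring and -0.033 with the probe sets of a gene averaged. The TCI04 arrays were all above the PBS arrays in 6.65% and all below in 6.89%. By the same reading the 8 tested genes described above had a median of 0.03, with 6 higher and 2 lower means and 0 separated. In none of the 8 lists did a gene pass the adjusted threshold in either direction (limma), and the counts below are descriptions with no test of a list.

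Among partners of class I loading and peptide processing, 7 of 15 tested genes had a higher and 8 a lower mean, with a median of -0.02, or 0.00284, 0.0359 and -0.0404 under quantile normalization, median centring and averaged probe sets. The medians of the other lists under these alternatives are given in the same order. Their brightest members, the chaperones calnexin (CANX) and calreticulin (CALR), had log2 shifts of -0.02 and 0.19, and CANX turned to 0.00284 after quantile normalization and 0.0359 with median centring. The other probe sets of CALR gave -0.34 and -0.02, and those of CANX -0.09 to 0.05. In interferon-gamma signalling and class I transcription, 13 of 19 had a higher and 6 a lower mean, with a median of 0.06, or 0.0818, 0.124 and -0.0543. The receptor subunit IFNGR2 had a log2 shift of 0.13 and the kinase JAK1 one of 0.00, which turned to -0.0302 after quantile normalization. Other probe sets of JAK1 gave -0.47 and -0.06. The groups separated for 2 of the 19. NFYA, a subunit of the CCAAT-binding factor NF-Y, gave 1396 ± 74.1 with PBS and 1579 ± 76.6 with TCI04, a log2 shift of 0.18 (limma, adjusted p = 0.697), but its other probe sets gave -0.86 to 0.07. RFXANK, a subunit of the RFX complex, gave 688 ± 21.4 and 591 ± 62.1, a log2 shift of -0.22 (limma, adjusted p = 0.697).

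In the list of PD-L1 stability and transcription factors, 9 of 15 had a higher and 6 a lower mean, with a median of 0.03, or 0.019, 0.0865 and -0.0229, and no gene whose groups separated. HIF1A, the hypoxia-inducible factor, and YY1 were its brightest members at -0.02 and 0.00, and both turned in sign under another scaling. Other probe sets of YY1 gave -0.43 to -0.03. Of 13 other checkpoint and don't-eat-me ligands, 7 had a higher and 6 a lower mean, with a median of 0.00, or 0.0194, 0.0648 and -0.0458. CD47, which signals to macrophages, had a log2 shift of 0.06, but its other probe sets gave -0.45 to 0.09. The galectin LGALS3 had one of -0.03, which turned to 0.0285 with median centring. NECTIN3 was higher in all TCI04 arrays, at 1351 ± 17.8 with PBS and 1499 ± 51.4 with TCI04 (log2 shift 0.15). CD80, a costimulatory ligand that T cells read through CD28, was lower in all of them at signals of 39.4 to 119. Both had an adjusted p of 0.697 in limma.

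Of 14 ligands of natural killer receptors and death receptor genes, 9 had a higher and 5 a lower mean, with a median of 0.05, or 0.0954, 0.107 and -0.0769. TNFRSF10B, a receptor for the death ligand TRAIL, gave 3983, 4120 and 3915 with PBS and 4599, 4841 and 4524 with TCI04. The groups did not overlap, and the log2 shift was 0.22 (0.09 to 0.35, limma, unadjusted p = 0.0041, adjusted p = 0.697), but its 3 other tested probe sets gave -0.30 to -0.15. MICB, a ligand of the NKG2D receptor, had a log2 shift of 0.03. In the adenosine pathway, where CD73 belongs, 3 of 11 had a higher and 8 a lower mean, with a median of -0.06, or -0.0123, 0.00275 and -0.211. The adenosine receptor ADORA2B had 0.02, or -0.0123 after quantile normalization. The kinase ADK, which removes adenosine inside the cell, had -0.02, or 0.0402 with median centring, and its other probe set gave 0.36. SLC28A3, a nucleoside transporter, was lower in all TCI04 arrays at 82.2 ± 3.24 with PBS and 50.6 ± 4.83 with TCI04 (log2 shift -0.60, limma, adjusted p = 0.697).

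Among soluble and metabolic immune suppressors, 6 of 12 had a higher and 6 a lower mean, with a median of -0.01, or 0.00706, 0.0524 and -0.0227. VEGFA, the angiogenic factor, gave 2303 ± 139 with PBS and 2725 ± 159 with TCI04 (log2 shift 0.24), and AHR, the receptor that senses kynurenine, 895 ± 87.0 and 1081 ± 19.3 (0.27). Both had all TCI04 arrays above all PBS arrays and an adjusted p of 0.697 in limma, and the 3 other probe sets of VEGFA gave -0.45 to 0.06. The galectin LGALS1, the brightest of the list with VEGFA, had -0.09. Of 7 tested class II genes, 4 had a higher and 3 a lower mean, with a median of 0.06, or 0.222, 0.124 and 0.0639. HLA-DMA and HLA-DMB, which load class II molecules, had signals of 130 to 159 and 96.6 to 185 with log2 shifts of -0.10 and 0.17.

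**Figure D4:**
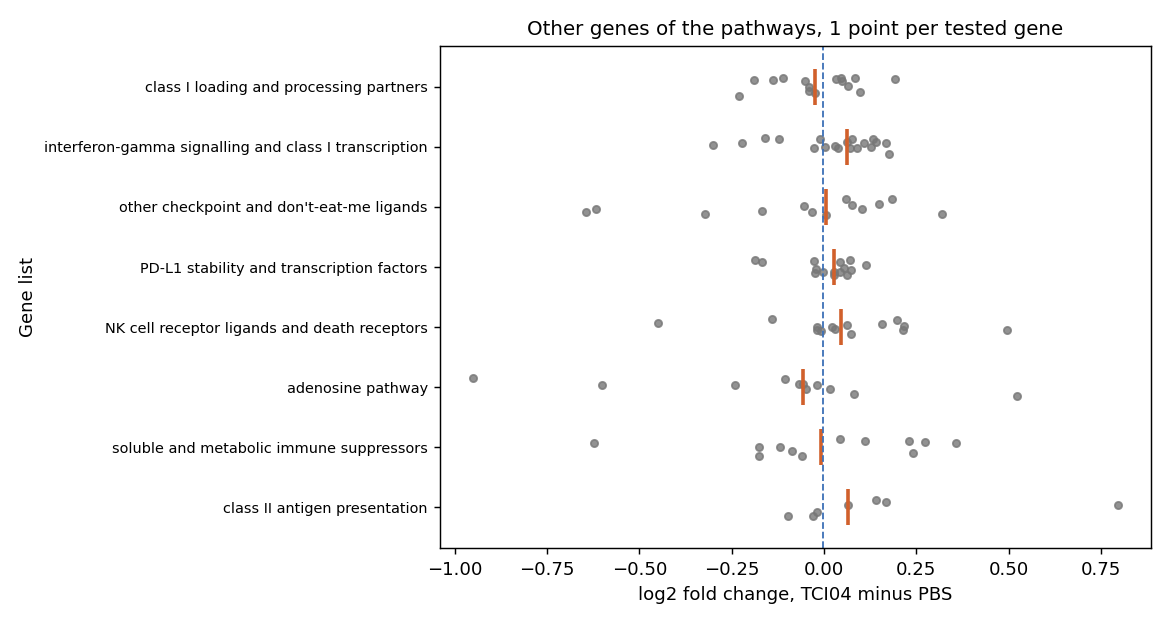
Log2 shift (TCI04 minus PBS) of each tested gene in the 8 lists (grey points, spread vertically only for legibility), with an orange line at each list's median and a dashed blue line at the median of all 13679 genes. On the deposited scaling the medians lie between -0.06 and 0.06, some turn in sign under another, and no point belongs to a gene past the adjusted threshold.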

How the data were processed

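Total RNA of MDA-MB-231 cells was measured on 6 Affymetrix arrays, 3 per group. The authors deposited linear intensity values, and MAS5, with no version, is named in the submitters' processing notes. The 2% trimmed mean was 500.1 on each array, so the deposited intensity values had been scaled to a common mean. Detection calls were not used here. Of 54675 probe sets, 62 were controls and 41097 had 1 symbol in the platform annotation.

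Values were taken as log2(signal + 10.96), the 20th percentile of the table. Probe sets with a mean under the 40th percentile were left out. Linear models (lmFit and eBayes with a variance trend, two-sided, limma 3.58.1, R 4.3.3) were fitted over all 32746 probe sets, with Benjamini-Hochberg adjustment. The fit was tested on simulated data. With 3 against 3 arrays an exact permutation p cannot go below 0.1. The genes and lists were chosen with earlier results of these data known. Named list genes were the 2 with the highest mean in a list and up to 2, by smallest p, whose groups did not overlap. The number of arrays limits the precision. Alternatives were quantile normalization, median centring, other offsets and filters, other variance settings, array weights, a replicate block, averaging over each gene, and each array left out. Protein sequences and some control probe sets were not used here.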

Additional observations from a re-analysis of the deposited data

How the results depend on the processing

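Of the 24 probe sets, 0 passed the adjusted threshold under any of 16 alternatives in which they were tested (lowest adjusted p 0.457), and 9 kept their sign in each of those. The filter at the 60th percentile left 22, without B2M 232311_at and TAP2 208428_at. Outside single arrays left out, signs turned for CD274 227458_at (0.0325, median centring), B2M 201891_s_at (0.0346, quantile) and HLA-C 211799_x_at (0.0159, array weights). Averaging a gene's probe sets gave 0.0306 for CD274, -0.169 for HLA-B, -0.0133 for HLA-C, -0.0348 for HLA-E, 0.196 for B2M and -0.100 for TAP2. Each was opposite in sign to the brightest probe set of its gene. The B2M average takes in the dim 232311_at (0.77), while both bright B2M probe sets had lower means with TCI04 (-0.12 and -0.06). The count of separated groups went from 1 to 4 after quantile normalization. The added probe sets were HLA-E 217456_x_at (lower), B2M 232311_at (higher) and NT5E 203939_at (higher). With single arrays left out, where fewer arrays must separate, the count was 2 to 4. The share of all tested probe sets that separated was not counted under these alternatives, so these counts have no background beside them. NT5E 227486_at also separated after quantile normalization and median centring, the alternatives that could have made its groups overlap. The count of all probe sets past the threshold went from 1 to 0 without a variance trend and was 0 to 1 with arrays left out. With the replicate number as a block it was 1, and 0 of the 24 passed. Same-numbered arrays had deviations from the group means correlated at 0.00356, 0.0619 and 0.0498, and differently numbered arrays at -0.0608 to 0.0092. With 3 arrays per group these values cannot decide whether arrays of the same number share a culture or a batch.

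Leaving out single arrays gave ranges across 0 for CD274 227458_at (-0.0766 to 0.0136) and 223834_at (-0.012 to 0.161), HLA-B 208729_x_at (-0.461 to 0.0954) and 209140_x_at (-0.149 to 0.17), HLA-C 211799_x_at (-0.296 to 0.13), 214459_x_at (-0.0663 to 0.121) and 216526_x_at (-0.0322 to 0.0709), HLA-E 200904_at (-0.12 to 0.0153) and 200905_x_at (-0.000139 to 0.127), TAP1 (-0.0686 to 0.202), TAP2 204769_s_at (-0.475 to 0.0791) and 208428_at (-0.0999 to 0.356), and NT5E 1553994_at (-0.121 to 0.27) and 203939_at (-0.00449 to 0.0498). Among list genes these were ADK (-0.0556 to 0.0281), ADORA2B (-0.0388 to 0.0449), CANX (-0.0433 to 0.00143), CD47 (-0.00927 to 0.102), HIF1A (-0.0683 to 0.00107), HLA-DMB (-0.0114 to 0.392), JAK1 (-0.0622 to 0.0583) and YY1 (-0.0279 to 0.0359). Quantile normalization turned CANX (0.00284), JAK1 (-0.0302), HIF1A (0.0249), YY1 (0.00158) and ADORA2B (-0.0123); median centring turned CANX (0.0359), LGALS3 (0.0285), HIF1A (0.0374), YY1 (0.0575) and ADK (0.0402); array weights turned JAK1 (-0.024), YY1 (0.000205) and ADORA2B (-0.0155). The cause was not tested.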
